A study of Mus musculus with 6 samples.

Results

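The genes described here are 38 enzymes and helper proteins of fatty acid oxidation, chosen by name from the pathway and without the carnitine shuttle, out of 37620 genes in the deposited tables. All 38 were found, and all 38 were among the 14125 genes that passed the filter on low counts. By the usual location of the protein, 20 were mitochondrial, 9 peroxisomal, 5 of mitochondria and peroxisomes or of several compartments, and 4 were long-chain acyl-CoA synthetases of membranes. They were read in 6 polyA RNA sequencing libraries of erythroid progenitors at the burst-forming unit stage (BFU-E), the early cells of the red blood cell lineage, sorted from livers of 129/SvImJ mouse embryos at E14.5, in mid-gestation. Before sorting, cells carrying lineage markers, Sca-1, CD16/32, CD41 or CD34 were depleted, and the sort kept c-kit positive cells within the lowest 10% for CD71. The medium held stem cell factor at 100 ng/mL, insulin-like growth factor 1 at 40 ng/mL and erythropoietin at 2 U/mL.

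Of the 3 groups, each with 2 libraries, the first received no drug, the second 100 nM dexamethasone (Dex), which activates the glucocorticoid receptor, and the third the same dose of Dex plus 10 μM GW7647, an agonist of the nuclear receptor PPARα. There was no group with GW7647 alone, and whether GW7647 acted only on PPARα at this dose was not tested. The labels state 12 h of treatment, whereas 1 table has 36 h in its headers, and it is not stated plainly whether the untreated cells had been cultured. Nothing states that the libraries of a group came from separate cultures or litters, so p-values measure only the spread between these libraries, which may be technical.

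Beta-oxidation shortens an activated fatty acid by repeating a cycle of dehydrogenation, hydration, a further dehydrogenation and thiolytic cleavage. Mitochondria run the cycle on short, medium and long chains and pass electrons through the electron transfer flavoprotein to the respiratory chain, while peroxisomes begin with an oxidase and take very long and branched chains. Many of these genes are known in liver and heart as targets of PPARα, which gives the comparison with GW7647 its question. Dex against untreated sets the same genes side by side with and without the glucocorticoid. If the untreated cells were not cultured, drug and time in culture cannot be told apart in either comparison with untreated. Below, wording such as "rose with Dex" or "Dex raised" names only the difference between these groups.

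Promoters of 4 genes are shown because the results turn on them. Hadh and Etfdh were called with added GW7647 under every setting tried, Acadl was among the mitochondrial genes that rose most with Dex, and Pex11a had the largest peroxisomal difference. Each is the 250 bases before the annotated start in RefSeq on GRCm38.p6, the reference strain and not 129/SvImJ, written 5′ to 3′ along the gene. All 4 lie on the minus strand, Hadh at chr3:131272102-131272351, Etfdh at chr3:79628768-79629017, Acadl at chr1:66863310-66863559 and Pex11a at chr7:79743132-79743381. Capitals mark the GC box GGGCGG on either strand and, in Hadh, the loose core ACANNNTGT of the glucocorticoid response element.
Hadh: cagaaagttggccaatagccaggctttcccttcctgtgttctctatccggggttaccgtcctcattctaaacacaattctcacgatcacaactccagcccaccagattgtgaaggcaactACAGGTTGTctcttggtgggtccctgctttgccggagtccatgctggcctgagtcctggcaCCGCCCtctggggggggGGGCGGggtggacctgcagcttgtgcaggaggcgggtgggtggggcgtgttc
Etfdh: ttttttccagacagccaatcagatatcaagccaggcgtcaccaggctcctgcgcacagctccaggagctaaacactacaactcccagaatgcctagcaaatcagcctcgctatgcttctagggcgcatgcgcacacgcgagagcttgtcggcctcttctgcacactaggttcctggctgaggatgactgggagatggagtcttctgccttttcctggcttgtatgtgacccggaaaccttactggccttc
Acadl: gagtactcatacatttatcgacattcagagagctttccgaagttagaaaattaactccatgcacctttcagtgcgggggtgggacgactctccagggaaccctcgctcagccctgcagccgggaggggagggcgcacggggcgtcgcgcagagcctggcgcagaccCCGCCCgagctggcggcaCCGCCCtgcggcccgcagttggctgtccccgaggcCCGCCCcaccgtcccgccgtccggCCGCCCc
Pex11a: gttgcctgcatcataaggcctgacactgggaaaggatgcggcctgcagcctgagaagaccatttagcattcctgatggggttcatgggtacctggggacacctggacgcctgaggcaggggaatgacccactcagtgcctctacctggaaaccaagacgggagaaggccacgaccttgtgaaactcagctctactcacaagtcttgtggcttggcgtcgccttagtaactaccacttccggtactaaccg

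Windows of this kind were found for 33 of the 38 genes, 34 windows in all. GGGCGG was in 21 of the 34, against 32.7% of 32851 windows of the same length, and Hadh and Acadl held it while Etfdh and Pex11a did not. The 32851 windows were not limited to the 14125 genes past the filter on low counts, as the members were, so these shares compare unlike sets. The direct repeat to which PPARs bind, searched on both strands as AGGTCANAGGTCA and more loosely as AGGNCANAGGNCA, was in 0 of the 34, against 0.0335% and 0.338% of all windows. The half-site AGGTCA, which both repeats overlap, was in 4, those of Acadm, Acadvl, Echs1 and Scp2, against 14% of all. The full palindrome AGAACANNNTGTTC was in 0 against 0.0304%, and its core ACANNNTGT was in 2, Hadh and Ivd, against 5.84%. The motifs were chosen after expression values were known, and a match is a description of these letters only.

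The libraries held between 35970286 and 54174801 counts. All 8 BFU-E and erythroid markers, among them Kit, Gata1 and Klf1, passed the filter, with summed normalized counts (counts scaled to a common library size of 43391997) of 180884 to 182768 in untreated, 154721 to 155236 in Dex and 151998 to 152669 in Dex plus GW7647 libraries. With Dex, 3 of these 8 markers were called higher, 3 lower and 2 did not pass, at a median log2 difference of -0.07, so the lower sum was not shared by all. Over all genes tested, 25.5% were called higher and 26% lower with Dex. Summed levels of markers of other cells also differed between the groups. In the same order of groups the summed level was 37509 to 40004, 17619 to 19828 and 12355 to 12716 for 9 of 9 megakaryocyte markers, and 15372 to 16388, 7156 to 7487 and 4425 to 4523 for 11 of 11 granulocyte and eosinophil markers. Mast cell and basophil markers, of which 7 of 10 passed the filter, summed to 6204 to 6212, 9802 to 10150 and 5658 to 5761. With Dex, 5 of these 7 were called lower and 2 higher, at a median log2 difference of -0.73, and the higher sum was carried by Hdc, the histidine decarboxylase, named after its values were seen (1749 and 1748 normalized counts in untreated, 8879 and 8487 in Dex, 5075 and 4984 in Dex plus GW7647 libraries). With GW7647 added to Dex, all 7 mast cell and basophil markers were called lower, at a median log2 difference of -1.18, against 7.58% of all genes. Both drugs against untreated gave 6 of the 7 lower and 1 higher, at a median of -2.00, although the sums were close. The shares over all genes there were 25.1% lower and 24.7% higher. Lower sums were those of monocyte and macrophage markers (4 of 9 passed, C1qa at 0 throughout) at 1654 to 1712, 705.2 to 751 and 506.4 to 518.5, and of hepatoblast markers (5 of 8 passed, Serpina1a at 0 throughout) at 128.4 to 143, 318.8 to 351.8 and 214.9 to 226.6. Lymphoid markers, 1 of 7 past the filter, summed to 41.57 to 42.78, 24.38 to 24.69 and 18.9 to 19.86. The part of these cells in the results below was not tested, and in bulk RNA fewer cells of a type cannot be told apart from less RNA per cell.

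With Dex, 20 of the 38 fatty acid oxidation genes rose and 4 fell at an adjusted p under 0.05, while 14 did not pass. Among all 14125 genes tested, 25.5% were called higher and 26% lower, 51.6% in either direction. The median log2 difference was 0.22 over the 38 and 0.01 over all genes. Differences of at least 0.58 on the log2 scale were called higher for 9 of the 38 and lower for 0, against 9.89% and 12.5% of all genes. Both Dex libraries lay above both untreated ones for 24 members and below for 7, with overlap for 7, and 36.8% and 36.1% of all genes were so separated upward and downward. Scaled by total counts in place of TMM, which shifted the all-gene median by 0.13 (log2), 27 members were called higher and 0 lower, against 38.6% and 18.3% of all genes under that scaling.

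**Figure D1:**
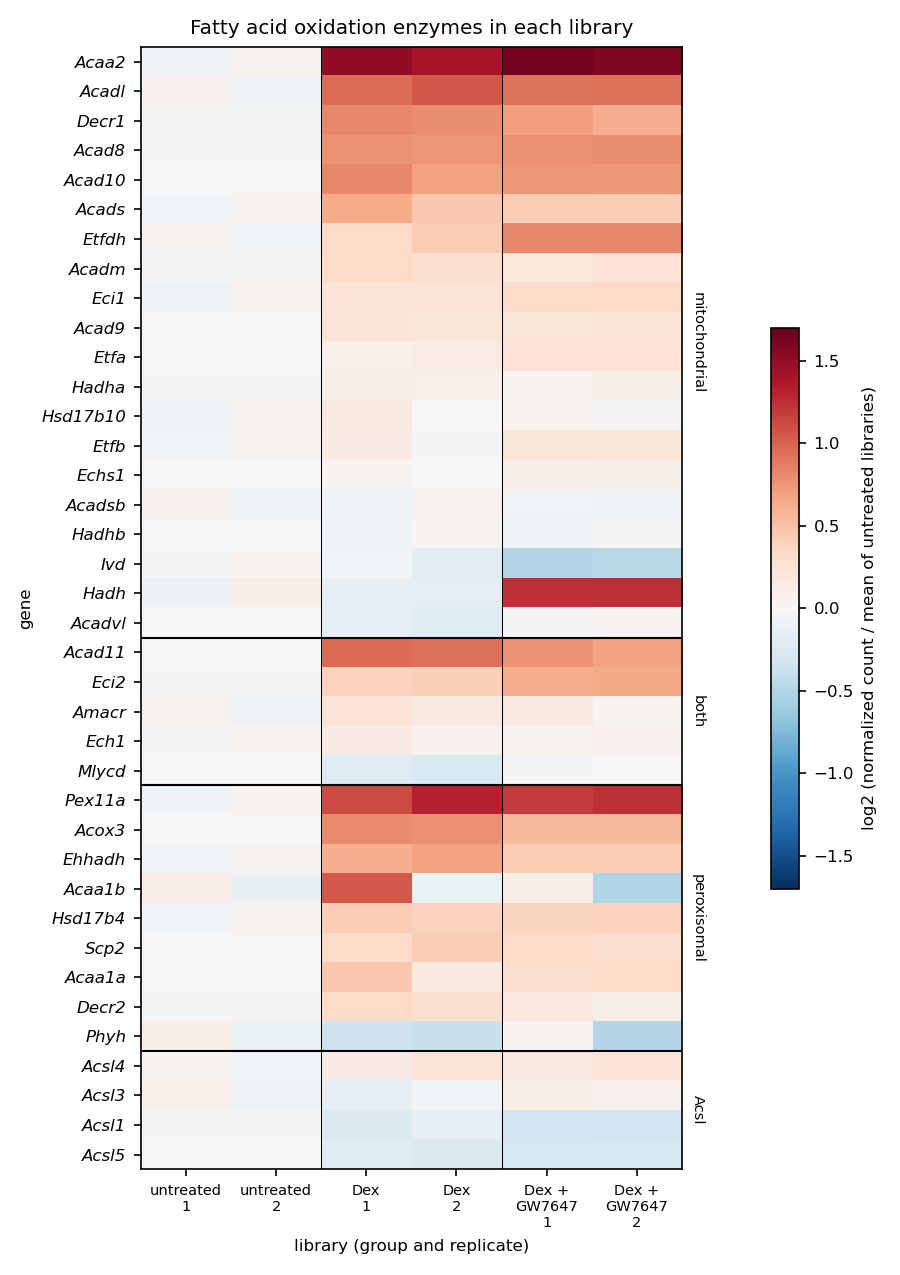
Each row is one of the 38 genes and each column one of the 6 libraries; colour gives log2 of the normalized count over the mean of the untreated libraries, red higher and blue lower, and lines divide the enzymes by location (Acsl, acyl-CoA synthetases). Acaa2 and Pex11a are red in all 4 treated libraries, while Hadh is red only in the 2 with Dex plus GW7647.

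Of the 20 mitochondrial genes, 10 rose with Dex, 1 fell and 9 did not pass, with a median log2 difference of 0.16. The shares over all genes were 25.5% higher and 26% lower. The largest rise was that of Acaa2, the thiolase that cleaves acetyl-CoA off at the end of the cycle. Its normalized counts were 2945 and 3180 in untreated, 8667 and 8063 in Dex, and 9478 and 9199 in Dex plus GW7647 libraries. Both treated groups stood far above the untreated one without overlap, 2.73-fold for Dex (log2 1.45 ± 0.06 SE, edgeR adjusted p = 3.42e-08). Hadhb, which holds the long-chain thiolase of the trifunctional protein, gave 2663 and 2656, then 2518 and 2752, then 2535 and 2708, and its libraries overlapped between all groups (adjusted p = 0.855 for Dex). Per length, as RPKM (reads scaled to the principal transcript's length and the TMM-scaled library size), Acaa2 made up 60.9% of the summed level of the pair in untreated cells, 81.1% with Dex and 82.8% with both drugs. These shares depend on the length used. Hadhb has 2048 bases in its principal transcript but 6595 with all exons joined, while Acaa2 has 1516 by either length.

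The acyl-CoA dehydrogenases carry out the step that opens the cycle, each over a range of chain lengths. Acadl, the long-chain enzyme, had 3610 and 3261 normalized counts in untreated, 6623 and 7172 in Dex, and 6489 and 6577 in Dex plus GW7647 libraries. It rose 2.01-fold with Dex (log2 1.01 ± 0.06, adjusted p = 6.46e-07), and no treated library reached down to the untreated level. Acads, the short-chain enzyme, rose 1.46-fold, from a mean of 1766 to 2580, and Acadm, the medium-chain enzyme, rose 1.23-fold, from 2438 to 3004. Acadvl, the very long-chain enzyme of the inner membrane, went the other way, from 2586 ± 22.6 (SD, n = 2) to 2286 ± 71.5 (log2 -0.18 ± 0.05, adjusted p = 0.0149). That fall did not pass with untreated replicate 2 set aside (log2 -0.17, adjusted p = 0.0694) or under total count scaling (log2 -0.05, adjusted p = 0.454). Of the summed per-length level of these 4 enzymes, Acadl held 35% in untreated cells, 48% with Dex and 47% with both drugs, and Acadvl 23.3%, 14.1% and 16.5%.

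Acad8 and Acad10 belong to the same family. Acad8, the isobutyryl-CoA dehydrogenase of valine breakdown, gave 1010 and 1040 normalized counts in untreated, 1748 and 1722 in Dex, and 1755 and 1772 in Dex plus GW7647 libraries. Dex raised it 1.69-fold (log2 0.76 ± 0.05, adjusted p = 1.53e-06) and the treated libraries lay close together. Acad10, a less studied relative, was low, at 255.5 in both untreated libraries, 452.1 and 411.6 with Dex, and 428.7 and 424 with both drugs. It too rose 1.69-fold (log2 0.76 ± 0.09, adjusted p = 7.59e-05), with no overlap between treated and untreated libraries. Acad9, also an assembly factor of respiratory complex I, rose 1.16-fold, from a mean of 2497 to 2906. The enzymes of the isoleucine and leucine pathways, Acadsb and Ivd, did not pass: Acadsb stood at a mean of 1590 in both groups, and Ivd at 1947 and 1802. Leaving out Dex replicate 1 put Ivd among the lower calls (log2 -0.18, adjusted p = 0.0287).

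Enzymes that prepare unsaturated fatty acids for the cycle were split. Decr1, the mitochondrial dienoyl-CoA reductase, had 885.1 and 864.9 normalized counts in untreated, 1539 and 1514 in Dex, and 1427 and 1348 in Dex plus GW7647 libraries. Its rise with Dex was 1.75-fold (log2 0.80 ± 0.06, adjusted p = 2.06e-06), with both treated groups clear of the untreated one. Eci1, a mitochondrial enoyl-CoA isomerase, rose 1.17-fold (adjusted p = 0.00536) but missed the threshold when untreated replicate 1 was set aside (log2 0.17, adjusted p = 0.0516). Ech1, a dienoyl-CoA isomerase found in both organelles, had means of 1823 and 1963 and did not pass.

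The middle steps of the mitochondrial cycle gave no call with Dex. Hadha, the long-chain hydratase and dehydrogenase subunit of the trifunctional protein, had 9225 and 8896 normalized counts in untreated, 9683 and 9622 in Dex, and 9413 and 9687 in Dex plus GW7647 libraries. The treated libraries lay above the untreated ones by a margin that missed the threshold (adjusted p = 0.118 for Dex). Echs1, the short-chain hydratase, had means of 2445 and 2473, and Hsd17b10, a hydroxyacyl-CoA dehydrogenase that also serves mitochondrial tRNA processing, 2206 and 2333. Hadh, the dehydrogenase for medium and short chains, stood at 1953 ± 185 and 1764 ± 4.32 (adjusted p = 0.0795), and without untreated replicate 1 it was called lower (log2 -0.24, adjusted p = 0.0114). Under total count scaling Hadha, Echs1, Hsd17b10 and Ech1 were called higher, with log2 differences of 0.22, 0.15, 0.21 and 0.24.

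Electrons from the dehydrogenases pass to the flavoprotein made of Etfa and Etfb and on to Etfdh, which hands them to ubiquinone. Etfdh had 3181 and 2988 normalized counts in untreated, 3874 and 4170 in Dex, and 5447 and 5417 in Dex plus GW7647 libraries, 3 levels with no overlap. Dex raised it 1.30-fold (log2 0.38 ± 0.05, adjusted p = 0.000245). Etfa, at 4808 and 4774, then 5076 and 5237, then 5666 and 5656, was not called with Dex (adjusted p = 0.0748). Etfb, at 4893 and 5231, then 5599 and 4955, then 5862 and 5795, overlapped between untreated and Dex (adjusted p = 0.456). Both flavoprotein subunits were called higher with Dex under total count scaling, with log2 differences of 0.24 and 0.19. Per length, Etfb was the highest of the 38 genes in untreated cells, at 131 ± 6.18 RPKM, and Etfa the next at 79.3 ± 0.396, an order that also held with the length of all exons joined.

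**Figure D2:**
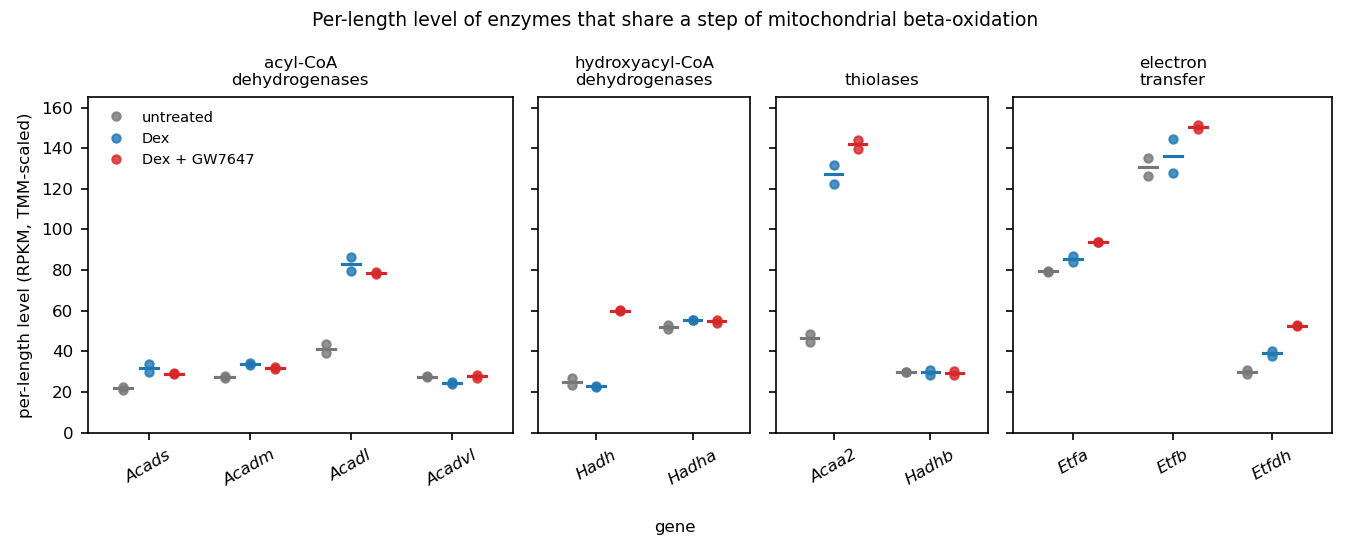
Points are libraries and bars group means of the per-length level (RPKM, TMM-scaled) of 11 mitochondrial enzymes, in panels by step of the cycle. Acaa2 rises from 46.6 to 127 with Dex, Hadh stands at 22.7 with Dex and 60 with Dex plus GW7647, and Hadha and Hadhb stay between 52 and 55.4 and between 29.5 and 29.9.

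Of the 9 peroxisomal genes, 7 rose with Dex, 0 fell and 2 did not pass, with a median log2 difference of 0.41. The shares over all genes were 25.5% higher and 26% lower. Pex11a, which elongates peroxisomes ahead of their division, had 187 and 201.2 normalized counts in untreated, 419 and 479.1 in Dex, and 440.5 and 457.1 in Dex plus GW7647 libraries. The treated libraries lay together and well above the untreated pair, 2.31-fold with Dex (log2 1.21 ± 0.10, adjusted p = 7.2e-06). Acox3, an oxidase that opens the peroxisomal cycle on branched chains, had 690.7 and 699.6, then 1218 and 1187, then 1015 and 1019. It rose 1.73-fold with Dex (log2 0.79 ± 0.06, adjusted p = 2.6e-06), and the 3 groups did not overlap.

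Hydration and the later dehydrogenation in peroxisomes lie in one multifunctional protein, of which there are 2. Ehhadh, the L-specific protein, had 223.7 and 237 normalized counts in untreated, 348.8 and 371.3 in Dex, and 306.9 and 307.1 in Dex plus GW7647 libraries. Its rise with Dex was 1.56-fold (log2 0.64 ± 0.10, adjusted p = 0.000338), and the libraries with both drugs lay between the other groups. Hsd17b4, the D-specific protein, rose 1.33-fold from a mean of 2843 to 3775. Per length it held 93.2% of the pair's summed level in untreated cells, 92.1% with Dex and 93.1% with both drugs, so Ehhadh was the minor form in every library.

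Among peroxisomal thiolases, Scp2, which also carries sterols, rose 1.30-fold with Dex, from 3216 ± 6.18 to 4195 ± 211 (adjusted p = 0.000163). Acaa1a rose 1.24-fold (log2 0.31 ± 0.09, adjusted p = 0.0121), and Dex replicate 1 decided that value: without it the log2 difference was 0.16 (adjusted p = 0.0533). Its Dex libraries stood 1.23-fold apart at 1916 and 1555, against a median of 1.06 over the 38 genes. Acaa1b, a near-identical copy, had 7.086 to 20.83 normalized counts over the 6 libraries, and reads may have been split between the copies, so both are uncertain. Decr2, the peroxisomal dienoyl-CoA reductase, rose 1.23-fold (adjusted p = 0.0261), but not when either untreated library (adjusted p = 0.11 and 0.0692) or Dex replicate 1 (0.0798) was set aside, nor with DESeq2 (0.148). Phyh, which starts alpha-oxidation of phytanic acid, had 171.2 and 146.9, then 124.2 and 121.9, then 162.5 and 112.2 normalized counts and did not pass.

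Among the 5 genes of both or several compartments, 2 rose with Dex, 1 fell and 2 did not pass. Over all genes tested 25.5% were called higher and 26% lower, and counts of so few genes do not set this group apart. Acad11, a dehydrogenase that takes 4-hydroxy acids, had 750.6 and 740 normalized counts in untreated, 1457 and 1426 in Dex, and 1271 and 1202 in Dex plus GW7647 libraries. It rose 1.93-fold with Dex (log2 0.95 ± 0.06, adjusted p = 7.5e-07), with no overlap among the 3 groups. Eci2, an enoyl-CoA isomerase, had 2791 and 2738, then 3615 and 3668, then 4225 and 4337, and rose 1.32-fold with Dex (log2 0.40 ± 0.05, adjusted p = 5.74e-05). Its 3 groups also stood apart. Mlycd, which breaks down malonyl-CoA, the inhibitor of the carnitine shuttle, fell from 442.2 ± 2.28 to 375.8 ± 7.64 (log2 -0.23 ± 0.08, adjusted p = 0.0319). That call was lost in all 11 other fits, where the adjusted p lay between 0.0537 and 0.294, each of the 6 left-out libraries among them. Amacr, a racemase for branched chains, had means of 289.7 and 330.9 and did not pass, but was called higher under total count scaling (log2 0.32, adjusted p = 0.019).

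Of the 4 acyl-CoA synthetases, which activate fatty acids for oxidation and for lipid synthesis alike, 1 rose with Dex, 2 fell and 1 did not pass. With 25.5% of all genes called higher and 26% lower, counts of so few genes do not set the synthetases apart. Acsl5 had 10207 and 10076 normalized counts in untreated, 8813 and 8589 in Dex, and 8228 and 8254 in Dex plus GW7647 libraries. It fell by 0.22 on the log2 scale with Dex (± 0.04, adjusted p = 0.00189) and Acsl1 fell by 0.19 (± 0.05, adjusted p = 0.0115), but neither passed under total count scaling (log2 -0.09 and -0.06, adjusted p = 0.105 and 0.325). Setting aside replicate 1 of the untreated or of the Dex group also ended the call of Acsl1 (adjusted p = 0.0637 and 0.0616). Acsl4, which prefers arachidonic acid, rose 1.13-fold (adjusted p = 0.0221), which setting aside replicate 2 of the untreated or of the Dex group ended (adjusted p = 0.15 and 0.127). Acsl3, of lipid droplets, had means of 2820 and 2641 and did not pass. Acsl5 made up 54.1% of the summed per-length level of the 4 synthetases in untreated cells, 50.7% with Dex and 48.8% with both drugs.

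With GW7647 added to Dex, 4 of 38 rose, 3 fell and 31 did not pass, against 2.15% of all genes called higher and 7.58% lower (9.73% in either direction). The median log2 difference was -0.02 over the 38 and 0.00 over all genes. A difference of at least 0.58 was called for 1 member, Hadh, higher, and for 0 lower, against 0.219% and 3.75% of all genes. The groups were separated upward for 12 members, downward for 12 and overlapped for 14, and 26.3% and 27.3% of all genes were separated upward and downward. By location, 3 mitochondrial genes rose and 1 fell, and 0 peroxisomal genes rose and 1 fell. This comparison and the one above share the Dex libraries, so their differences are not independent, and the values are set side by side without a relation between them.

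Hadh had 1822 and 2084 normalized counts in untreated, 1767 and 1761 in Dex, and 4631 and 4679 in Dex plus GW7647 libraries. Only the libraries with GW7647 were high, 2.64-fold above Dex (log2 1.4 ± 0.06, adjusted p = 1.75e-06) and 2.38-fold above untreated (log2 1.25 ± 0.06, adjusted p = 1.68e-07). The authors' deposited table gives a ratio of 0.377 for Dex over Dex plus GW7647, with an adjusted p = 2.42e-80. Per length Hadh held 32.6% of the summed level of Hadh and Hadha in untreated cells, 29.1% with Dex and 52.3% with both drugs. Hadha itself had a mean of 9653 with Dex and 9550 with both drugs (adjusted p = 0.877).

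Etfdh, at the values given above, rose a further 1.35-fold with GW7647 (log2 0.43 ± 0.05, adjusted p = 0.000746) and stood 1.76-fold above untreated with both drugs. The authors' deposited table gives a ratio of 0.737 for Dex over Dex plus GW7647, with an adjusted p = 4.59e-09. Hadh and Etfdh were the 2 members whose call against Dex held in all 11 other fits. Exons of Etfdh overlap 4930579G24Rik on the other strand, which had 816.7 and 868.4 normalized counts in untreated, 949.8 and 852.3 in Dex, and 1001 and 941.3 in Dex plus GW7647 libraries. Whether the counting used strand is not stated, and reads of the pair then cannot be told apart.

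The remaining calls with GW7647 were smaller and less firm. Eci2 rose 1.18-fold (log2 0.23 ± 0.05, adjusted p = 0.00981), lost without replicate 1 or 2 of Dex plus GW7647 (adjusted p = 0.0825 and 0.138), and against untreated both drugs raised it 1.55-fold (log2 0.63 ± 0.05, adjusted p = 2.44e-06). Acadvl rose by 13.6% (adjusted p = 0.0494) to a mean of 2600, beside 2586 in untreated cells. Its fall with Dex and this rise rest on the same Dex libraries. The call of Acadvl was lost in 9 of 11 other fits. Among them were those without either untreated library (log2 0.18 in both), Dex replicate 2 (0.16) or replicate 1 or 2 of Dex plus GW7647 (0.22 and 0.15). Ivd, the isovaleryl-CoA dehydrogenase of leucine breakdown, had 1906 and 1988 normalized counts in untreated, 1891 and 1713 in Dex, and 1377 and 1404 in Dex plus GW7647 libraries. It fell by 0.38 on the log2 scale (± 0.06, adjusted p = 0.0037), with the libraries of both drugs below all others, a call lost without replicate 1 of Dex plus GW7647 (log2 -0.36, adjusted p = 0.0549). Acad11 fell by 0.22 (± 0.06, adjusted p = 0.0369) but lost the call in 9 of 11 other fits, those without any one of the 6 libraries (adjusted p between 0.0507 and 0.334) and those with only the 4 libraries compared (0.0502), with the replicate number as a block (0.0705) and by DESeq2 (0.0994). Acox3 fell by 0.24 (± 0.06, adjusted p = 0.0246), which did not pass with Dex replicate 1 (adjusted p = 0.0738) or either library of both drugs (0.196 and 0.183) set aside, with the replicate number as a block (0.0611) or by DESeq2 (0.0791). The authors' deposited table gives adjusted p = 0.189 for Acad11 and 0.135 for Acox3 in this comparison. In the other direction, Acads was called lower without Dex replicate 2 (log2 -0.20, adjusted p = 0.0449) and Etfb higher without Dex replicate 1 (log2 0.23, adjusted p = 0.0338).

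**Figure D3:**
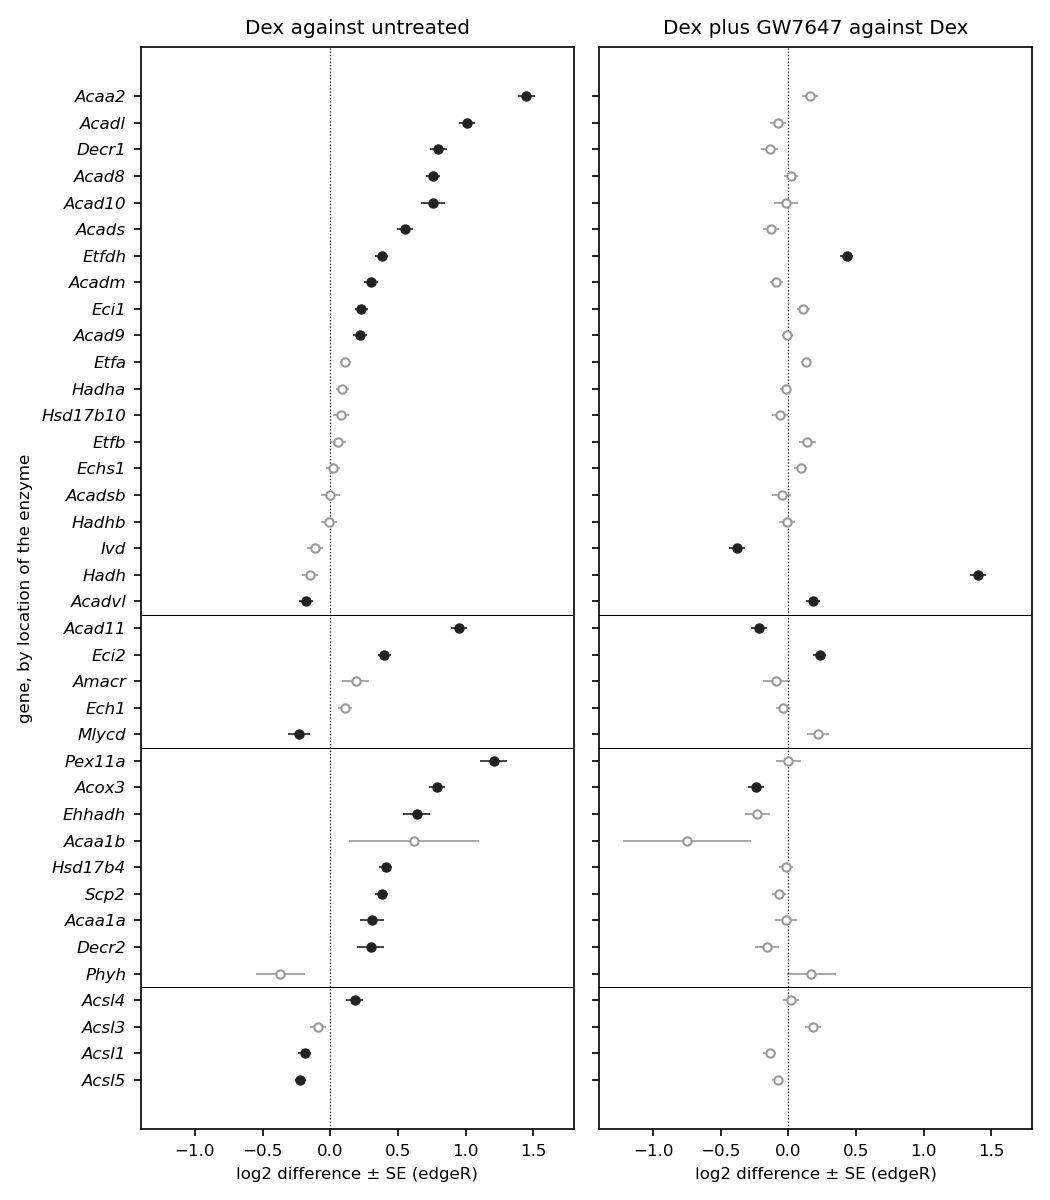
Points give the log2 difference from edgeR with its SE for each of the 38 genes, Dex against untreated on the left and Dex plus GW7647 against Dex on the right; filled points passed an adjusted p of 0.05, and lines divide mitochondrial, shared, peroxisomal and synthetase genes from top to bottom. On the left 20 filled points lie above 0, and on the right Hadh, at 1.4, stands apart from the rest.

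Of the 9 members that Dex raised by at least 0.58 on the log2 scale, Acad11 and Acox3 were called lower with added GW7647. Those are the calls that other fits ended, and the other 7 members did not pass. Over all genes tested, 7.58% were called lower with added GW7647. The 9 were picked by their high Dex libraries, which also enter this comparison, so the choice itself favours lower values with GW7647. Acaa2 had means of 8365 with Dex and 9339 with both drugs (adjusted p = 0.108), Acadl 6897 and 6533 (0.47), Pex11a 449 and 448.8 (0.997) and Acad8 1735 and 1763 (0.836). Acad10 stood at 431.9 and 426.4 (0.92), Decr1 at 1527 and 1387 (0.162) and Ehhadh at 360 and 307 (0.161). A p that misses the threshold does not show that these levels were equal. Acaa2 was called higher, at a log2 difference of 0.16, when all genes with at least 1 count were fitted (adjusted p = 0.0474).

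Both drugs against untreated gave 22 members higher and 3 lower, with 13 that did not pass, against 24.7% and 25.1% of all genes (49.7% in either direction). This comparison shares libraries with both of those above. A difference of at least 0.58 was called higher for 10 and lower for 0, against 7.56% and 13.8% of all genes, and the groups were separated upward for 26 and downward for 4, against 39.5% and 36.7%. Of the 20 mitochondrial genes 13 rose and 1, Ivd, fell, and of the 9 peroxisomal ones 6 rose and 0 fell. Acaa2 was 3.05-fold above untreated (log2 1.61 ± 0.06, adjusted p = 2.31e-08), Pex11a 2.31-fold and Acadl 1.90-fold. Etfa, at a log2 difference of 0.24 ± 0.05 (adjusted p = 0.00148), and Etfb, at 0.20 ± 0.06 (adjusted p = 0.023), were called here. Acsl1 and Acsl5 fell by 0.33 and 0.30. Etfb did not pass with untreated replicate 1 (adjusted p = 0.136) or either library of both drugs (0.106 and 0.0811) set aside. That of Acadm was lost without replicate 2 of Dex plus GW7647 (0.0639), that of Acsl4 without untreated replicate 2 (0.111) or replicate 2 of Dex plus GW7647 (0.136), and that of Acaa1a without any of the 4 libraries compared (0.0579 to 0.0702).

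Summed per length, the 20 mitochondrial genes reached 689.5 ± 11.4 RPKM in untreated cells, 869.8 ± 17.8 with Dex and 951.6 ± 1.09 with both drugs, 1.26 and 1.38 times the untreated level. The 9 peroxisomal genes summed to 83.86 ± 1.09, 111.5 ± 1.61 and 107.3 ± 1.19, or 1.33 and 1.28 times untreated. With total counts as the scale the ratios were 1.38 and 1.5 for mitochondrial and 1.45 and 1.39 for peroxisomal genes. The synthetases summed to 101.8 ± 2.91, 93.18 ± 1.3 and 91.66 ± 0.436, and their ratio to untreated was 0.92 with Dex under TMM but 1 with total counts. No test was made of these sums, in which genes of high per-length level weigh most. With Dex, Acaa2 went from 46.6 to 127 RPKM and Acadl from 41.3 to 83, while 9 of the 20 mitochondrial genes did not pass and 1 fell. With GW7647 added, Hadh went from 22.7 to 60, while 16 of the 20 did not pass and 1 fell. The mitochondrial sums thus do not describe a rise shared by all 20 genes.

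The carnitine shuttle and other acyl carriers, which deliver the substrate, went both ways with Dex, with 5 of 14 tested genes higher and 6 lower (7 and 2 under total count scaling). Cpt1c, a carnitine palmitoyltransferase best known from neurons, rose 2.64-fold, from 519.2 ± 40.9 to 1369 ± 175, and Crot, which exports chains from peroxisomes, rose 1.71-fold. Cpt1a, the gatekeeper of mitochondrial entry, fell by 0.33 on the log2 scale and Acsl6 by 1.08. With GW7647 added, 2 of the 14 rose and 1 fell, at a median of -0.07. Cpt1a rose 2.89-fold from a mean of 1988 to 5742, Slc25a20, the carnitine carrier of the inner membrane, rose 1.73-fold from 1480 to 2557, and Abcd2, a peroxisomal importer, fell by 0.70.

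Of 15 peroxisome biogenesis genes, Dex raised 7 and lowered 1 (10 and 1 under total count scaling), with a median of 0.16. Pex11g, a relative of Pex11a, rose 1.58-fold, Pex6, an ATPase that recycles the import receptor, 1.26-fold and Pex16, of membrane assembly, 1.20-fold, while Pex3 fell by 0.58 on the log2 scale. The breakdown of branched-chain amino acids also runs through Acad8, Ivd and Etfdh, and of 14 further genes of it Dex raised 10 and lowered 1 (11 and 1 under total count scaling), with a median of 0.30. Bcat2, the mitochondrial transaminase, rose 1.83-fold and Mccc1, a carboxylase subunit, 1.5-fold, and Auh fell by 0.71. GW7647 then lowered 2 of these 14 and raised 0, Bcat2 by 0.43 and Mut by 0.20 on the log2 scale, while of the 15 peroxisome biogenesis genes 0 were called with edgeR in either direction. The citrate cycle and mitochondrial mass list gave 3 higher and 0 lower of 16 with Dex, Idh3a, Cs and Sdha, at a median of 0.01 (9 and 0 under total count scaling, median 0.14), and 0 calls with GW7647. Their differences with Dex were small, 0.31 for Idh3a, 0.22 for Cs and 0.12 for Sdha.

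**Figure D4:**
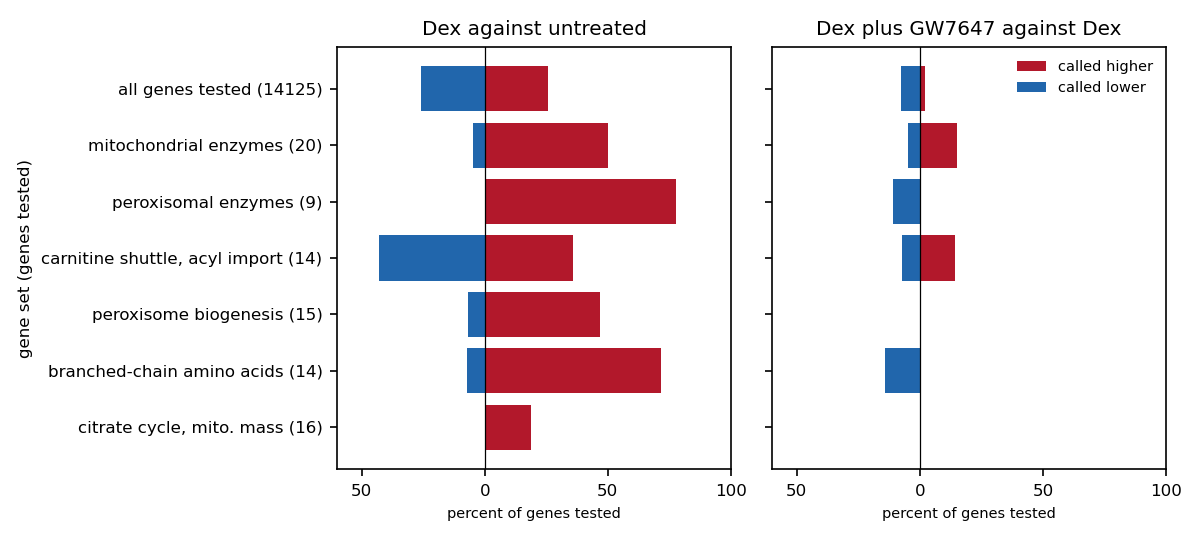
Bars give the percent of tested genes called higher (right, red) and lower (left, blue) with edgeR, for all genes and for 6 gene sets, with the number tested in brackets. With Dex 7 of 9 peroxisomal and 10 of 20 mitochondrial genes extend to the right, and with GW7647 added the bars are short or missing.

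Transcripts of PPARα, a receptor that GW7647 is known to activate, were nearly absent from the counts. Whether GW7647 acted through PPARα, another PPAR or neither at the dose used was not tested. Ppara had 0 or 1 count in each of the 6 libraries and did not pass the filter, nor did the coactivator Ppargc1a, with 1 count in all. Of the 8 PPAR receptors, partners and coactivators that were tested, 1 rose with Dex and 5 fell, and 0 rose and 1 fell with GW7647. Ppard, the widely expressed receptor, had means of 2431 in untreated, 2031 in Dex and 1956 in Dex plus GW7647 libraries. Pparg rose 2.07-fold with Dex, from 61.85 ± 2.43 to 128 ± 3.36, and fell by 1.78 on the log2 scale, to 36.98 ± 3.86, when GW7647 was added (adjusted p = 0.00014). Pprc1, a coactivator of mitochondrial biogenesis, fell by 0.58 with Dex and Rxra, the common partner of the PPARs, by 0.89.

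Reads of a few other members could also be shared. Exons of 14 of the 38 genes overlap those of another gene, in 11 cases on the other strand. For Acaa1a the partner on the other strand is Myd88, with 2694 and 2531 normalized counts in untreated, 3955 and 3922 in Dex, and 3316 and 3452 in Dex plus GW7647 libraries, higher with Dex (log2 0.59 ± 0.05, adjusted p = 6.47e-06). For Acsl5 it is Zdhhc6, with 2726 and 2654, then 1643 and 1769, then 1889 and 1867, lower with Dex as Acsl5 was (log2 -0.66 ± 0.05, adjusted p = 4.58e-06). On the same strand, Acsl3 overlaps Utp14b, whose mean was 473.2 in untreated and 381.1 in Dex libraries (log2 -0.31 ± 0.09, adjusted p = 0.0184). Paox, the partner of Echs1, and Dvl2, that of Acadvl, did not pass with Dex (log2 0.13, adjusted p = 0.21, and log2 0.08, adjusted p = 0.252). Where exons overlap on opposite strands, reads cannot be told apart without strand, and for Acsl3 and Utp14b strand would not separate them. The partners on the other strand of Acad11 (Ackr4), Acox3 (4931431C16Rik) and Eci2 (Gm16984) had at most 10, 7 and 29 counts in any library. Further overlaps on the same strand were those of Acad11 with Gm28305, Acad9 with Gm43079, and Etfb with Gm45233 and Mir7051. Counts of these partners are not given here, and strand would not separate their reads either.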

How the data were processed

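RNA was purified with TRIzol and made into TruSeq libraries, per the labels' protocols. The submitters' processing notes name TopHat 1.4.1, HTSeq and DESeq, and the builds mm9 and NCBIM37. The strand setting and the annotation release are not given in the sources used here. The 2 deposited tables hold read counts per Ensembl gene and library, and the counts of Dex plus GW7647 were identical in both. They also hold the authors' normalized signal (counts over 1 size factor per library and table), ratios of group means taken by the authors, and the authors' p-value, raw and adjusted. Symbols and transcript lengths came from GENCODE M21 on GRCm38, joined by Ensembl identifier (32897 of 37620 genes, 87.45%), so no gene positions are given for the files' build.

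Counts of all 6 libraries were fitted with edgeR 4.0.16 in R 4.3.3 (filterByExpr with a minimum count of 10, TMM scaling, quasi-likelihood test, 3 group means), with Benjamini-Hochberg adjustment over 14125 genes and a threshold of 0.05. The fit was also run on simulated counts, and no result above rests on that run. Far fewer genes were changed there than were called with Dex here, so it does not test the scaling. Normalized counts are counts over the TMM-scaled library size, times the mean of those sizes; errors are SD over the 2 libraries of a group, or SE for log2 differences. The 38 members and the other lists were chosen with earlier results of these data known. Values per library are given for members called at an absolute log2 difference of at least 0.58 and for those of highest level, with some others; of other lists, up to 4 genes of smallest p are named, and Ppara, Ppargc1a and genes that overlap members were named after their values were seen. Alternatives were DESeq2 1.42.0, total count scaling, all genes with at least 1 count, the 4 libraries compared, a replicate block, each library left out, the authors' adjusted p, and the length of all exons joined, which was added after the data were seen.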

Additional observations from a re-analysis of the deposited data

How the results depend on the processing

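Across 11 other fits, 16 of 24 member calls for Dex against untreated, 2 of 7 for Dex plus GW7647 against Dex, and 21 of 25 for Dex plus GW7647 against untreated were held in every one. Total count scaling gave 0 members lower with Dex in place of 4, and 5451 and 5480 genes higher against untreated with Dex and with both drugs, in place of 3606 and 3486. For Dex plus GW7647 against Dex, 1 member in place of 3 was lower with the replicate block, with DESeq2 and by the authors' deposited adjusted p, and 578 genes with at least 1 count were higher in place of 303. The labels do not say that a replicate number marks a shared culture or day. Deviations of same-numbered libraries correlated at -0.212 (untreated and Dex), -0.046 (untreated and both drugs) and 0.149 (Dex and both drugs), and the replicate block gave 154 genes higher with GW7647. Leaving out 1 library, where the lone library of a group is assumed to vary like the others, gave 2 to 3 members lower with Dex. With GW7647 it gave 2 to 5 members higher and 0 to 3 lower, and 54 to 618 genes higher and 484 to 1111 lower, fewest without a library of both drugs. Signs turned, all without a call, for Ivd with Dex under total count scaling (log2 0.02), for Echs1 (-0.01) and Etfb (-0.03) with Dex without Dex replicate 1, and for Acsl3 with both drugs against untreated without untreated replicate 2 (0.00). With each library left out in turn, these 3 ran from -0.01 to 0.03, from -0.03 to 0.13 and from 0.00 to 0.17. The cause was not tested. Members called in no fit numbered 5, 27 and 9 in the 3 comparisons, and the sign differed in some fit for 4, 10 and 7 of them. With the length of all exons joined, 8 of the 10 members with the highest per-length level in untreated cells were the same. Shares of enzymes within a step were computed with the principal transcript only, and they depend on that length. The 2 libraries of each group limit every statement here, and Acaa1b, at 7.086 to 20.83 normalized counts, is too low for a difference to be seen.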
